A study of Mus musculus with 5 samples.

Results

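The nuclear-encoded subunits of oxidative phosphorylation were followed in mouse brain RNA that had bound to an mRNA export factor in vitro. Members were the probe sets with exactly 1 gene symbol that began with Ndufa, Ndufb, Ndufc, Ndufs, Ndufv or Uqcr, was Sdha, Sdhb, Sdhc or Sdhd, or began with Cox4 to Cox8 or Atp5. This gave 179 of the 34945 probe sets with 1 symbol, for 90 of 18193 genes. They comprised 76 probe sets of complex I, 9 of complex II, 16 of complex III, 37 of complex IV and 31 of complex V. The pattern also takes in 10 probe sets of the 8 Ndufaf genes, which encode assembly factors of complex I and are described apart. Ndufa4 and Ndufa4l2 were counted with complex IV.

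The study measured RNA on 5 Affymetrix mouse expression arrays. On 2 arrays the RNA came from the protein MA-Brent-1 after deimination, which converts arginine in a protein to citrulline. On 2 further arrays the RNA came from the same protein without deimination, and 1 array held the initial brain RNA with no binding step, called input here. MA-Brent-1 is an mRNA export factor of the REF/Aly family, named REFP2 in 2 of the titles. The 4 eluates are called bound here. The strain and age of the animals, how many were pooled and how the protein was made and deiminated are not given in the sources used here. Brain, with no region named, is given as the source of all RNA, and a gene in fewer cells and a gene with less RNA per cell cannot be told apart.

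Oxidative phosphorylation passes electrons from NADH and succinate through complexes I to IV of the inner mitochondrial membrane to oxygen, and complex V uses the resulting proton gradient to make ATP. Complex II is wholly nuclear-encoded, whereas the other complexes combine nuclear subunits with subunits made inside the mitochondrion. Nuclear subunit mRNAs are transcribed, processed and exported to the cytoplasm before translation, and brain tissue depends heavily on this pathway for ATP. Several complex IV subunits have alternative isoforms that are used mainly in heart and skeletal muscle, lung or testis.

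NRF-1 and GABP (also called NRF-2) are transcription factors known to act on promoters of respiratory chain genes, so the promoters of the members were searched for their binding motifs. RefSeq promoters, on build GRCm38.p6, were at hand for 74 of the 90 genes, and the 250 bases before each start were read on both strands. A gene was counted when any of its promoters held a match. The palindromic NRF-1 motif, seen in capitals in the promoters below, was in 4 of the 74 (5.41%), against 0.877% of all 27025 genes searched. The GABP motif, the letters CCGGAAG, was in 14 (18.9%), against 7.83% of all. The letters CCAAT were in 32 (43.2%), against 37.5% of all, and the YY1 motif AAGATGGC in 1 (1.35%), against 1.83%. A match is a description of these letters and not evidence of binding. Atp5g2 (chr15:102671048-102671297, minus strand), Atp5k (chr5:108434400-108434649, minus strand) and Cox6a1 (chr5:115348959-115349208, minus strand) are printed because they hold the NRF-1 motif and differ in bound minus input below, being called higher, called lower and not called. Each runs 5′ to 3′ towards the gene, and capitals mark the NRF-1 motif and, near the end of Cox6a1, the GABP motif on the other strand.
Atp5g2: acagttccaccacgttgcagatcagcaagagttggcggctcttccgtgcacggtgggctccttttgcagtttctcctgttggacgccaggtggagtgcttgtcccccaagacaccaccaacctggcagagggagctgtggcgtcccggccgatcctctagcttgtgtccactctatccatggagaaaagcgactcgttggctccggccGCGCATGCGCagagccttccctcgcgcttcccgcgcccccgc
Atp5k: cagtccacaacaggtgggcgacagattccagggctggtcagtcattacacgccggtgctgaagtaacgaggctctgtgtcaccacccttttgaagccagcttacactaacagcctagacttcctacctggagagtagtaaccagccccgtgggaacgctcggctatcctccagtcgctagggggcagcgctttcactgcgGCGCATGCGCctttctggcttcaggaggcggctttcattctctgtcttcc
Cox6a1: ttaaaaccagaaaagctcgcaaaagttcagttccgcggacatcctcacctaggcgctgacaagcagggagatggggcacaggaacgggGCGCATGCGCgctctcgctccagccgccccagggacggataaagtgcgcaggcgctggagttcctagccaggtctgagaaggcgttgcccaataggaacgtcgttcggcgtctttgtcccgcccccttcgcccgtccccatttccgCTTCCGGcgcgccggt

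Values are MAS5 signals on a linear scale, and repeats are described as biological in 1 title only. The p-values therefore reflect the spread among these particular samples, which may be technical. Every array had a 2% trimmed mean of 150, whereas the median signal was 29.8 to 41.4 on the bound arrays and 102 on the input array. Transcripts added before hybridisation averaged 10.08 to 13.04 log2 on the bound arrays and 17.04 on the input array, so the input array stands apart and each result against it depends on the scaling. The ratio of 3′ to 5′ signal was 29.8 to 55.6 on the bound arrays and 234 on the input array for Actb. For Gapdh it was 17.4 to 31.9 on the bound arrays and 2.71 on the input array. For the labelled tissue, 7 neuronal markers were read, and 7 passed the signal filter. All were called higher on the bound arrays, against 31.6% of all genes, but such a call does not bear on the tissue of origin. Their summed signal was 16425 to 20002 on the bound arrays and 4416 on the input array. How much the amount of added transcripts, the 3′ ratios or the cell types contributed to the results below was not tested.

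The first comparison asks which of these mRNAs were enriched in the bound RNA over the starting RNA. Differences are in log2(signal + 4.18), and a probe set is called when its limma p, adjusted by Benjamini-Hochberg over all 27022 probe sets that passed the signal filter, is below 0.05. Of the 179 members, 161 passed that filter, for 85 of the 90 genes. Among those 161, 87 were called higher on the bound arrays (54.0%), against 26.8% of all tested probe sets. A further 17 were called lower (10.6%), against 29.8% of all, and 57 were not called. With no filter, 84 of the 179 were called higher, against 15.6% of all, and 26 lower, against 36.2%. In 3 cases a probe set passed the filter only through its input signal, namely 1 each of Ndufab1, Cox4i2 and Cox8c. These 3 had to be low on the bound arrays, and a filter on the bound arrays alone left 85 members called higher, against 26.7% of all, and 15 called lower, against 24.9%.

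The median member difference was 1.29, against -0.20 for all tested probe sets. All 4 bound arrays lay above the input array for 108 of the 161 (67.1%), against 39.1% of all, and below it for 32 (19.9%), against 45.6%. Counted by gene, with the probe set of highest mean signal standing for each, 48 of 85 genes were called higher, against 31.6% of all genes, and 8 lower, against 24.8%. The higher calls ran across complexes, with 42 of 70 probe sets in complex I, 3 of 8 in complex II, 6 of 14 in complex III, 15 of 30 in complex IV and 17 of 29 in complex V. The lower calls were 6, 2, 2, 5 and 2 in the same order.

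**Figure D1:**
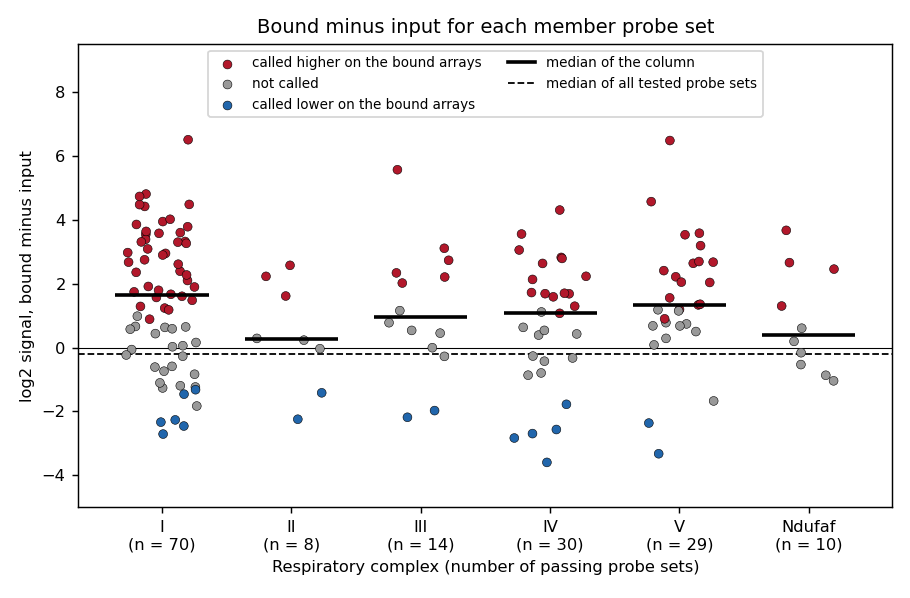
Log2 signal, bound minus input, for each member probe set that passed the signal filter, by respiratory complex and for the Ndufaf assembly factors. Red points were called higher on the bound arrays, blue points lower and grey points not called. Black bars are column medians, and the dashed line is the median of all tested probe sets (-0.20). The medians were 1.64 in complex I, 0.26 in II, 0.97 in III, 1.09 in IV, 1.33 in V and 0.40 for Ndufaf genes.

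How far the members stood above the rest depended on the scaling. The median of all probe sets was -0.20 as deposited, 0.49 after quantile normalisation, -0.26 after cyclic loess, 1.25 after median centring and 5.26 after scaling to the added transcripts. The members lay 1.49 above that median as deposited and under both constant shifts, 0.42 above it after quantile normalisation and 0.29 after cyclic loess. Relative to the same median, every complex stayed positive under these settings, and under cyclic loess the excess was 0.50 for complex I, 0.33 for II, 0.036 for III, 0.24 for IV and 0.14 for V. Without subtracting it, the cyclic loess medians were -0.23 in complex III, -0.022 in complex IV and -0.12 in complex V. Higher calls made up 83.7% of member calls as deposited, 83.5% after quantile normalisation and 63.1% after cyclic loess (53 higher, 31 lower). They made up 97.6% after median centring (124 higher, 3 lower) and 100% after scaling to the added transcripts (106 higher, 0 lower). Over all probe sets the shares were 47.3%, 64.3%, 54.7%, 88.5% and 100% in the same order. Under the last scaling no probe set was called lower, so this share could not differ between members and all. After cyclic loess 31 of 161 members were called lower, against 5513 of all 27022 probe sets, a similar share. As a share of members tested, higher calls were 50.3% after quantile normalisation, against 38.3% of all, and 32.9% after cyclic loess, against 24.6% of all. They were 77.0% after median centring, against 46.9% of all, and 65.8% after scaling to the added transcripts, against 36.6% of all. The 8 genes called lower below all had positive differences after scaling to the added transcripts, and Sdhd and Ndufv3 also after median centring. Differences given below for single genes are for the signals as deposited.

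Rank within an array does not depend on a constant shift. Over all 179 members, the median percentile among the non-control probe sets was 95.3 and 94.7 with deiminated protein, 95.9 and 94.8 with non-deiminated protein and 84.5 in the input. The median member ranked high in the input already, and higher on each bound array. The complex II median ran the other way, with 82.3 and 77.0 with deiminated protein, 83.4 and 83.0 with non-deiminated protein and 91.2 in the input. Different probe sets lay at that median on different arrays. Most of its 9 probe sets ranked higher on every bound array than in the input. An Sdha, an Sdhc and an Sdhd probe set ranked lower on every bound array. Probe sets differ in how brightly they report, so a percentile is set here only against the same probe sets on another array.

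**Figure D2:**
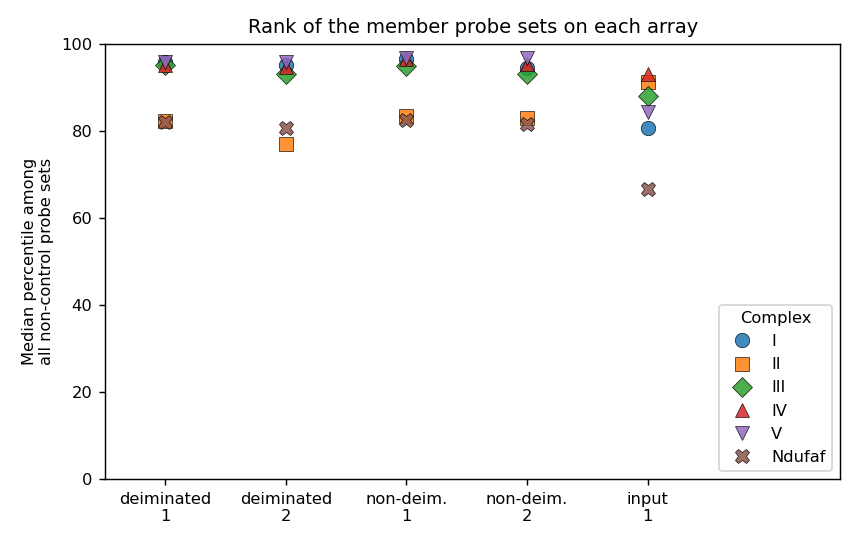
Median percentile of the member probe sets among all non-control probe sets (vertical axis, 0 to 100) on each of the 5 arrays, with 1 symbol per complex and 1 for the Ndufaf genes. The medians of complexes I, III, IV and V and of the Ndufaf genes lay lower on the input array than on the 4 bound arrays. The median of complex II lay higher on it, although most of its probe sets did not.

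Complex I takes electrons from NADH, and its core subunits carry the flavin and the iron-sulfur clusters. Among the 33 complex I genes that passed, 19 were called higher, 2 lower and 12 neither. Ndufv1, which binds the flavin where NADH is oxidised, had signals of 4060 and 3802 with deiminated protein, 3764 and 3576 with non-deiminated protein and 382 in the input. The 4 bound values lie close together and far above the input value. The difference was 3.30 ± 0.37 (SE; adjusted p = 1.87e-05), and the other probe sets of Ndufv1 were called higher by 3.26 and 3.63.

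Ndufs1, the large iron-sulfur subunit next in the electron path, had 490.2 and 249 with deiminated protein, 447 and 276 with non-deiminated protein and 20.4 in the input. All bound values were above the input value, by 3.85 ± 0.46, and the second array of each bound group was the lower one. Ndufs3, a core subunit of the peripheral arm, had 1103 and 907 with deiminated protein, 1196 and 728 with non-deiminated protein and 93.1 in the input, a difference of 3.32 ± 0.37. The same order of arrays recurred there.

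Ndufs8 and Ndufs7 hold the last iron-sulfur clusters before ubiquinone, and their probe sets did not report alike. The Ndufs8 probe set with the largest member difference had 3038 and 1798 with deiminated protein, 2029 and 1750.2 with non-deiminated protein and 19.0 in the input, a difference of 6.50 ± 0.37. The Ndufs8 probe set of highest mean signal had 4471 and 2894 with deiminated protein, 3728 and 3601 with non-deiminated protein and 3569 in the input. There the input value lay inside the range of the bound values, and the difference was 0.025 ± 0.42 (adjusted p = 0.963). Of the other probe sets of Ndufs8, those called higher differed by 4.48 and 3.39. The brighter Ndufs7 probe set had 5179 and 6431 with deiminated protein, 4154 and 6042 with non-deiminated protein and 5623 in the input, a difference of -0.064 ± 0.45 that was not called. Another probe set of Ndufs7 was called higher by 3.78 ± 0.41.

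Ndufv2, the partner of Ndufv1 with an iron-sulfur cluster, was called lower through its brightest probe set, which had 5615 and 5319 with deiminated protein, 4402 and 6967 with non-deiminated protein and 15141 in the input. The difference was -1.46 ± 0.48 (adjusted p = 0.0203), whereas another Ndufv2 probe set was called higher by 3.31 ± 0.35. Ndufv3, an accessory subunit beside the flavin subunit, had 5154 and 5507 with deiminated protein, 3604 and 6505 with non-deiminated protein and 12684 in the input. It was called lower, with a difference of -1.32 ± 0.48. For both genes the input value was above all bound values.

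Through the probe set of highest mean signal, the accessory subunits Ndufs5 and Ndufa9 had the largest called differences of the genes of this complex. Dimmer probe sets of Ndufab1 and Ndufs4 were called higher by 4.80 and 4.47. Ndufs5 had 471 and 281 with deiminated protein, 355 and 314 with non-deiminated protein and 9.1 in the input, a difference of 4.73 ± 0.43 (adjusted p = 3.51e-06). Ndufa9, which sits at the junction of the arms near the quinone site, had 1250.2 and 1079 with deiminated protein, 1559 and 982 with non-deiminated protein and 52.2 in the input, a difference of 4.42 ± 0.36. In Ndufs5 and Ndufa9 no bound value came near the input value.

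Other accessory subunits ranged from called higher to uncalled differences below 0. Ndufa1, a small X-linked subunit, had 9099 and 13757 with deiminated protein, 8294 and 11318 with non-deiminated protein and 673 in the input, a difference of 3.94 ± 0.47. Ndufc2 had 8206 and 13229 with deiminated protein, 6755 and 14404 with non-deiminated protein and 1359 in the input, a difference of 2.90 ± 0.54. Both were far above the input on every bound array. Ndufab1, which is also the acyl carrier protein of mitochondria, was called higher by 2.39 ± 0.38, and Ndufa3, Ndufc1, Ndufb10 and Ndufa10 by 2.97, 2.75, 2.61 and 2.35. Dimmer probe sets of Ndufab1 were called higher by 4.80 and lower with -2.34. Ndufa5, in the peripheral arm, had 8271 and 11499 with deiminated protein, 5759 and 12805 with non-deiminated protein and 20978.5 in the input. Its bound values were all below the input value, but the difference of -1.20 ± 0.58 was not called. Another probe set of Ndufa5 was called higher by 1.23 ± 0.36. Ndufa13, Ndufb8 and Ndufb9 had uncalled differences of 0.65, 0.57 and 0.59 through their brightest probe sets, and Ndufb7 one of -0.74. Other probe sets of Ndufb9 and Ndufb7 were called higher by 2.10 and 3.57. Ndufb4 stayed under the filter, with 3.06 to 16.3 on the bound arrays and 97.8 on the input array.

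**Figure D3:**
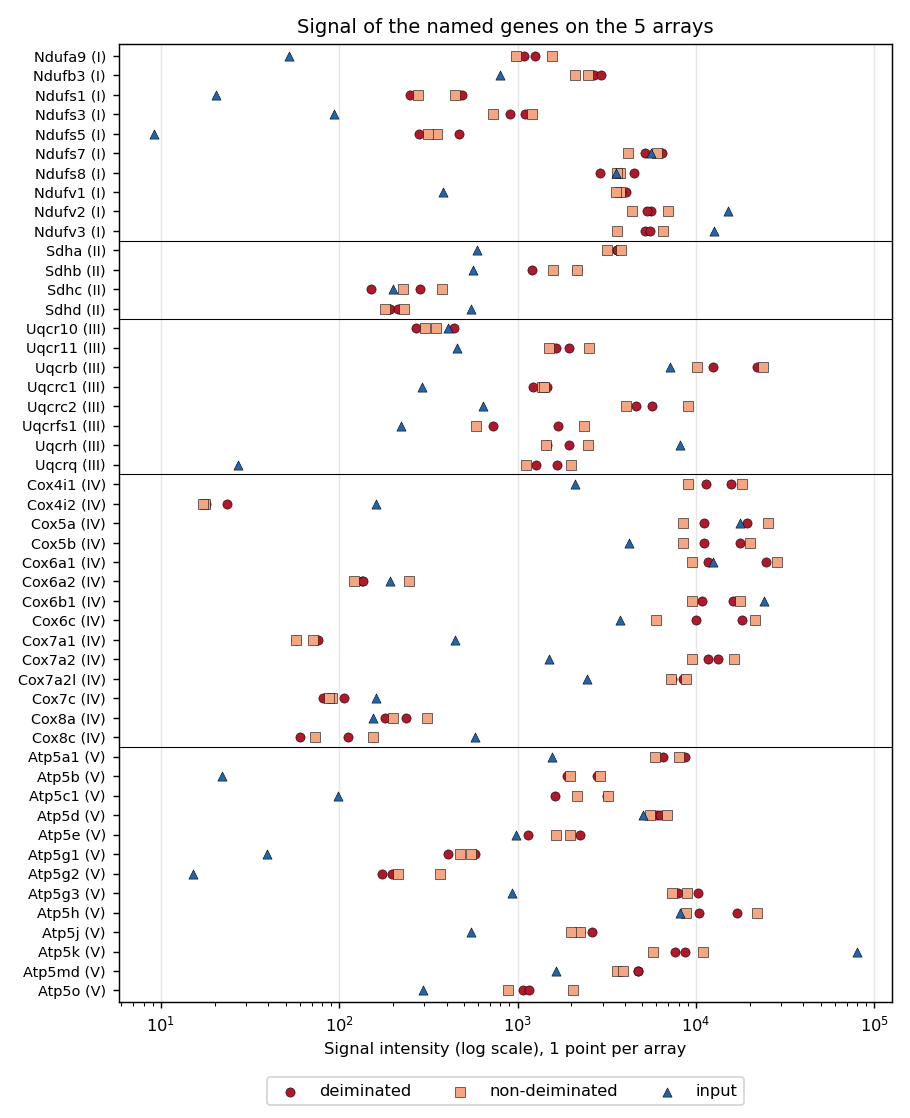
Signal intensity (log scale) of the named subunit genes on each of the 5 arrays, through the probe set of highest mean signal, grouped by complex. Dark red circles are deiminated arrays, light squares non-deiminated arrays and blue triangles the input array. The bound symbols lie close together for genes such as Ndufv1 and Sdha and are spread for genes such as Uqcrfs1 and Cox5a. The input symbol lies far to the left for genes such as Atp5b and Uqcrq and to the right for genes such as Uqcrh and Atp5k.

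Complex II oxidises succinate and also belongs to the citric acid cycle. Its catalytic subunits were called higher and its membrane anchors were not. Sdha, the flavin subunit, had 3589 and 3583 with deiminated protein, 3189 and 3786 with non-deiminated protein and 590 in the input, a difference of 2.57 ± 0.37 (adjusted p = 0.000145). Sdhb, the iron-sulfur subunit, had 2150.4 and 1206 with deiminated protein, 2146 and 1572 with non-deiminated protein and 560 in the input, a difference of 1.61 ± 0.40. For both, the input value was below all bound values.

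The anchors Sdhc and Sdhd hold the complex in the membrane. Sdhd had 192 and 213 with deiminated protein, 181 and 232 with non-deiminated protein and 551 in the input, and was called lower with a difference of -1.42 ± 0.37 (adjusted p = 0.00718). Its dimmer probe set had an uncalled 0.23 ± 0.48. The brighter Sdhc probe set had 283 and 151 with deiminated protein, 375 and 227 with non-deiminated protein and 201 in the input, so the groups overlap and the difference of 0.29 ± 0.45 was not called. A dimmer Sdhc probe set was called lower with -2.24 ± 0.42. No test of the difference between catalytic subunits and anchors was made.

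Complex III passes electrons from ubiquinol to cytochrome c. Of its 8 genes, 5 were called higher, 1 lower and 2 neither. Uqcrc1 and Uqcrc2 form its core on the matrix side. Uqcrc1 had 1452 and 1212 with deiminated protein, 1369 and 1414 with non-deiminated protein and 291 in the input, a difference of 2.21 ± 0.34. Uqcrc2 had 5678 and 4626 with deiminated protein, 4062 and 8969 with non-deiminated protein and 642 in the input, a difference of 3.11 ± 0.47. Every bound value exceeded the input value in both genes.

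Uqcrfs1, the Rieske iron-sulfur protein, had 1683 and 727 with deiminated protein, 2358 and 587 with non-deiminated protein and 223 in the input. The second array of each bound group was well below the first, and the difference of 2.34 ± 0.61 was called all the same. Uqcrq, a small subunit near the quinone site, had 1659.8 and 1270.5 with deiminated protein, 1995 and 1113 with non-deiminated protein and 27.0 in the input, the largest called gene difference of this complex at 5.56 ± 0.39. A dimmer Uqcrq probe set was called lower with -1.97. Uqcr11, a small subunit at the edge of the complex, differed by 2.02 ± 0.38. Uqcrh, the hinge protein beside cytochrome c1, went the other way, at 1944 and 1453 with deiminated protein, 2491 and 1439.5 with non-deiminated protein and 8117 in the input. Its difference was -2.18 ± 0.42 (adjusted p = 0.0011), whereas its dimmer probe set had an uncalled 0.54. Uqcrb and Uqcr10, also small subunits, differed by 1.15 ± 0.64 and -0.28 ± 0.38 through their brightest probe sets and were not called. Another Uqcr10 probe set was called higher by 2.73 ± 0.66.

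Complex IV reduces oxygen, and its nuclear subunits surround a catalytic core made in the mitochondrion. Of the 15 genes that passed, 6 were called higher, 3 lower and 6 neither, which is near the 31.6% higher and 24.8% lower of all genes. Cox4i1, the widespread isoform of the largest nuclear subunit, had 11404 and 15743 with deiminated protein, 8987 and 18111 with non-deiminated protein and 2105 in the input, a difference of 2.63 ± 0.55. Cox7a2, the widespread isoform of subunit VIIa, had 11689 and 13200.3 with deiminated protein, 9469.7 and 16305 with non-deiminated protein and 1494 in the input, a difference of 3.05 ± 0.51. In both genes the second array of each bound group was the brighter, unlike Ndufs1 and Ndufs3. Cox5b and Cox6c, which every tissue uses, were called higher by 1.69 ± 0.60 and 1.72 ± 0.67, and so was Cox7a2l, which takes part in joining complexes III and IV, by 1.68. Ndufa4, which is named for complex I and belongs to complex IV, had 1122 and 829 with deiminated protein, 1436 and 889 with non-deiminated protein and 424 in the input, a called difference of 1.29 ± 0.38. Its paralogue Ndufa4l2 stayed under the filter, with 3.33 to 9.20 on the bound arrays and 149 on the input array.

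The other widespread subunits were not called through their brightest probe sets. Cox5a had 11019 and 19326 with deiminated protein, 8425 and 25463 with non-deiminated protein and 17595 in the input, a difference of -0.27 ± 0.69. Cox6a1, whose promoter is printed above, had 11625 and 24808 with deiminated protein, 9453 and 28493 with non-deiminated protein and 12429 in the input, a difference of 0.43 ± 0.71. In these 2 genes the input value fell between the first and the second array of each bound group, so the groups overlap. Cox6b1, Cox7c and Cox8a, also found in most tissues, differed by -0.87 ± 0.61, -0.79 ± 0.48 and 0.54 ± 0.41. Further probe sets of Cox5a, Cox6a1, Cox6b1 and Cox8a were called higher by 3.55, 1.07, 1.59 and 2.79.

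The 3 genes of complex IV called lower through their brightest probe set were Cox7a1, Cox4i2 and Cox8c, each an isoform known from other tissues. Cox7a1, the heart and skeletal muscle isoform of subunit VIIa, had 57.2 and 76.2 with deiminated protein, 57.3 and 71.5 with non-deiminated protein and 443 in the input, a difference of -2.69 ± 0.49 (adjusted p = 0.000843). Cox4i2, the lung isoform of subunit IV, had 23.6 and 17.9 with deiminated protein, 17.7 and 17.2 with non-deiminated protein and 160.5 in the input, a difference of -2.83 ± 0.79. Cox8c, a testis isoform, had 60.5 and 111 with deiminated protein, 73.2 and 155 with non-deiminated protein and 576 in the input, a difference of -2.57 ± 0.52. All bound values of these genes were below the input value, and Cox4i2 passed the filter only through the input array. The other lower calls of this complex were a dimmer probe set of Cox8c, at -3.60, and a dim probe set of the widespread subunit Cox5b, at -1.78 ± 0.45. The dimmer Cox8c probe set, with 12.7 to 22.3 on the bound arrays and 258 in the input, also passed only through the input array. It had to be low on the bound arrays, and a filter on those arrays alone left 3 lower calls in this complex.

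The remaining tissue isoforms had no call. Cox6a2, the muscle partner of Cox6a1, had 134 and 136 with deiminated protein, 121 and 245 with non-deiminated protein and 192 in the input, and its difference of -0.33 ± 0.46 was not called. Cox8b (muscle) and Cox6b2 and Cox7b2 (testis) were under the filter, with at most 39.2 on any array. Muscle markers passed the filter in 3 of 9 cases, none was called, and their summed signal was 529 to 811 on the bound arrays and 848 on the input array. Ckm had 22.7 and 4.0 with deiminated protein, 4.7 and 7.2 with non-deiminated protein and 377 in the input, whereas Mb and Myl1 were at 36.9 or less on every array. Myh7, the brightest of them, went the other way, with 523 and 573 with deiminated protein and 349 and 608 with non-deiminated protein. It had 260 in the input, an uncalled difference of 0.94 ± 0.38. Of 6 testis germ cell markers 1 passed and was not called, with a summed signal of 66.8 to 183 on the bound arrays and 372 on the input array. Markers of liver, a tissue absent from the label, were called lower in 3 of the 3 that passed, against 24.8% of all genes. Their sums were 65.0 to 153 on the bound arrays and 925 on the input array. Of these, Cyp2e1 had 8.96 to 35.3 on the bound arrays and 136 in the input. It passed the filter only through its input signal, so it had to be low on the bound arrays. The part of these muscle, testis and liver markers in the isoform values was not tested.

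Complex V consists of the catalytic head, the rotating stalk and ring, and a fixed peripheral stalk. Of its 17 genes, 12 were called higher, 1 lower and 4 neither. Atp5b, the catalytic beta subunit, had 2779 and 1880.3 with deiminated protein, 2899.7 and 1959 with non-deiminated protein and 22.0 in the input. No bound value came near the input value. The difference of 6.48 ± 0.38 (adjusted p = 2.68e-07) was the largest of any member gene through its probe set of highest mean signal. Atp5a1, the alpha subunit of the head, differed by 2.21 ± 0.45.

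Atp5c1, the gamma subunit of the rotating stalk, had 3151 and 1614 with deiminated protein, 3226 and 2155 with non-deiminated protein and 99.0 in the input, a difference of 4.57 ± 0.42. Its neighbours in the stalk, Atp5d and Atp5e, differed by 0.29 ± 0.45 and 0.78 ± 0.41 through their brightest probe sets and were not called, while another Atp5d probe set was called higher by 2.41. The genes Atp5g1, Atp5g2 and Atp5g3 encode the same membrane ring subunit, and all were called higher, by 3.53 ± 0.37, 3.58 ± 0.46 and 3.19 ± 0.44. Atp5g2, whose promoter is printed above, had 196 and 173 with deiminated protein, 212 and 367 with non-deiminated protein and 15.2 in the input. In the peripheral stalk, Atp5o and Atp5j were called higher by 2.05 ± 0.43 and 2.04 ± 0.35. Atp5h had an uncalled 0.74 ± 0.63 through its brightest probe set, and another was called higher by 1.33. Atp5pb, the long subunit b of that stalk, had 7773 and 5687 with deiminated protein, 6856 and 5193 with non-deiminated protein and 985 in the input, and was called higher by 2.67 ± 0.43. The small membrane subunits Atp5j2, Atp5md and Atp5mpl were called higher by 1.19, 1.35 and 0.90, and Atp5l had an uncalled 0.68. Other probe sets of Atp5j2 were called higher by 2.64 and lower with -2.36.

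Atp5k, a small membrane subunit that helps complexes pair and whose promoter is printed above, was the lower gene. Its brightest probe set had 7587 and 8632 with deiminated protein, 5757 and 10894 with non-deiminated protein and 80198 in the input, a difference of -3.32 ± 0.58 (adjusted p = 0.000577). The other probe sets of Atp5k had uncalled differences of 1.15 and 0.68, so the lower call rests on 1 of its 3 probe sets.

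The Ndufaf assembly factors help build complex I and are not part of it. Of their 8 genes, 4 were called higher and none lower. Ndufaf5 had 312 and 231 with deiminated protein, 296 and 129 with non-deiminated protein and 14.2 in the input, a difference of 3.67 ± 0.51. Ndufaf3, Ndufaf4 and Ndufaf7 were called higher by 2.45, 1.30 and 2.66, and in each the 4 bound values lay above the input value. Ndufaf1, Ndufaf2, Ndufaf6 and Ndufaf8 had uncalled differences of 0.60, 0.19, -0.16 and -0.53. Among assembly factors outside the symbol pattern, 17 of 36 genes were called higher and 4 lower, with a median of 0.78.

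Neighbouring lists of the pathway were counted in the same way, against 31.6% higher and 24.8% lower of all genes. A mixed list held electron carriers, carriers of the inner membrane, the outer membrane channels Vdac1, Vdac2 and Vdac3, and the ATP synthase inhibitor Atpif1. Of its 12 genes that passed, 9 were called higher and 0 lower, with a median of 1.82. The higher calls included those of the Vdac genes and Atpif1. Etfa, Etfb and Etfdh had uncalled differences of -0.54, -0.54 and -0.80. Cyc1, the cytochrome c1 of complex III, differed by 2.83 ± 0.36, and Slc25a5, an ADP/ATP carrier, by 3.12 ± 0.35. Of 16 citric acid cycle genes, with the pyruvate dehydrogenase genes Pdha1, Pdhb and Dlat counted in, 14 were called higher and 1 lower. Their median was 2.20. Fh1, fumarase, had 999 and 672 with deiminated protein, 1061 and 954 with non-deiminated protein and 21.9 in the input, a difference of 5.13 ± 0.36. Idh2, which makes NADPH from isocitrate, was the exception at -2.12 ± 0.42.

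Of 12 regulators of mitochondrial biogenesis, 4 were called higher and 3 lower, shares close to the 31.6% and 24.8% of all genes. The coactivators Ppargc1a and Ppargc1b were called higher by 2.95 ± 0.34 and 3.33 ± 0.42. Nrf1, the gene of the factor whose motif was searched for, was called lower with -2.19 ± 0.53, and Gabpb1, a GABP subunit, with -1.88 ± 0.57. Of the 13 mitochondrially encoded genes, 1 was named on the array. ND5, a complex I subunit made in the mitochondrion, had 1354 and 1268 with deiminated protein, 1299 and 1984 with non-deiminated protein and 18700.3 in the input. It was called lower with -3.68 ± 0.39 (adjusted p = 1.28e-05). That is 1 gene, and it was not compared with the nuclear subunits by a test.

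Many genes have several probe sets, so calls for 1 gene can be set side by side. Of 48 member genes with at least 2 passing probe sets, 33 had higher calls only, 5 lower calls only, 7 calls in both directions and 3 no call. The 7 were Atp5j2, Cox5b, Ndufab1, Ndufb2, Ndufs4, Ndufv2 and Uqcrq. In Ndufs4, a complex I subunit mutated in Leigh syndrome, 1 probe set had 412 and 342 with deiminated protein, 528 and 360 with non-deiminated protein and 14.2 in the input, called higher by 4.47 ± 0.40. Another Ndufs4 probe set had 48.2 and 51.2 with deiminated protein, 60.2 and 33.4 with non-deiminated protein and 243 in the input, called lower with -2.26 ± 0.58. The brightest Ndufs4 probe set was not called, at -0.27 ± 0.36. In 6 of these genes, all but Ndufv2, the lower-called probe sets had at most 120.3 on any bound array. Affymetrix gives the endings _x_at and _s_at to probe sets that can also bind related transcripts. Such probe sets gave 23 of the 87 higher calls and 5 of the 17 lower calls. Counted by gene they gave 13 of the 48 higher calls, among them Uqcrq, Atp5c1, Sdha, Ndufc2 and Cox5b, and 3 of the 8 lower calls, those of Sdhd, Atp5k and Uqcrh. Values of all these genes are uncertain to that extent. Without these endings 65 of 114 members were called higher (57.0%, against 25.9% of all so restricted) and 12 lower. Which transcript end or form each probe set reads was not analysed here.

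**Figure D4:**
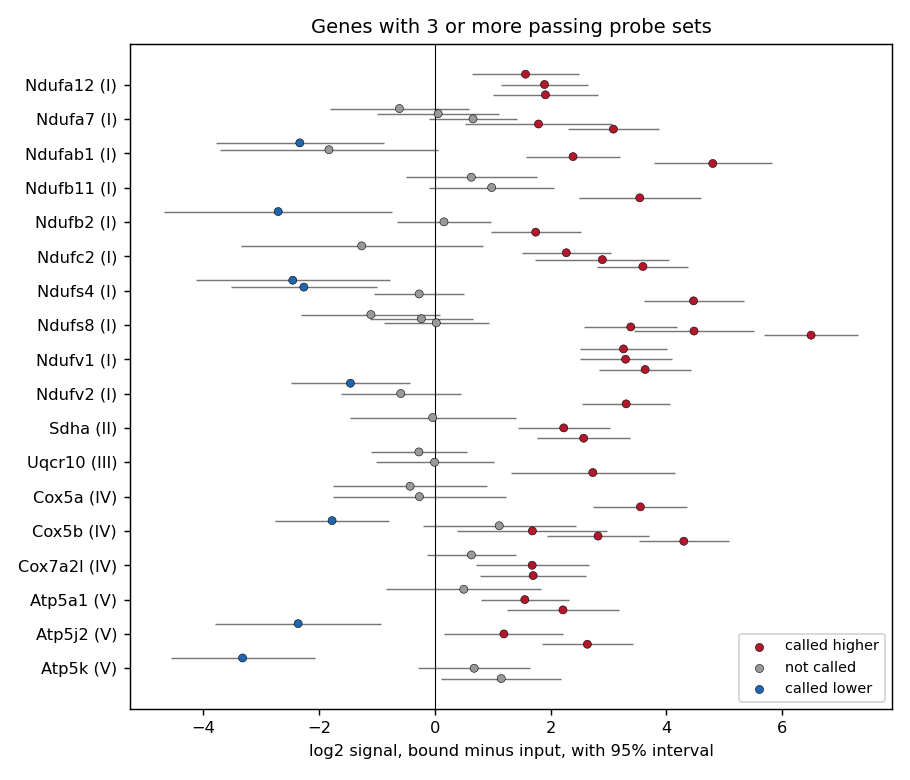
Log2 signal, bound minus input, of every passing probe set of the member genes with at least 3 of them, 1 row of points per gene with its complex. Points are estimates and lines their 95% intervals, in red where called higher, blue where called lower and grey where not called. Atp5j2, Cox5b, Ndufab1, Ndufb2, Ndufs4 and Ndufv2 hold red and blue points, and the points of Ndufv1 lie close together.

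Each protein form was also set against the input array on its own. Both comparisons share that array, so they are given side by side. For deiminated minus input, 82 members were called higher, against 24.9% of all, and 15 lower, against 26.6%. For non-deiminated minus input, 83 were called higher, against 24.7% of all, and 16 lower, against 25.7%. The medians were 1.29 and 1.25.

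The second comparison asks whether deimination of the protein changed which of these mRNAs it held. No member was called in either direction, 0 of 161, and neither was any other probe set (0% of 27022). At an unadjusted limma p below 0.05 there were 0 members, against 1.32% of all tested probe sets (356). The median difference was -0.0093 for the members and -0.0095 for all probe sets, with 75 members above 0 and 86 below. The absolute difference was under 0.5 for 153 of the 161. A p that misses the threshold does not show that the protein forms bind alike. The 95% interval lay within a 2-fold change for 89 members and within 4-fold for 156.

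By complex the medians were 0.024 in I, -0.077 in II, -0.084 in III, -0.0070 in IV and -0.078 in V, all far smaller than the widths of single intervals. Both deiminated arrays lay above both non-deiminated arrays for 12 members (7.45%), against 11.0% of all, and below them for 11 (6.83%), against 13.1%. These shares were not above the background.

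The member genes with the largest moderated t were small in size. Atp5g2, with the values given above, differed by -0.59 (95% interval -1.48 to 0.30), and both deiminated values lay below both non-deiminated ones. For Sdhc the difference was -0.49, and the ranges of the values given above overlap. Ndufaf1, a complex I assembly factor, had 254 and 243 with deiminated protein and 348 and 271 with non-deiminated protein, a difference of -0.30 with no overlap. In the other direction, Ndufaf5 differed by 0.45, again with overlap. Atp5md, a small membrane subunit of complex V, had 4735 and 4709 with deiminated protein and 3605 and 3900 with non-deiminated protein, a difference of 0.33 (-0.43 to 1.09) with no overlap. Ndufb3, a complex I membrane subunit, had 2694 and 2916 with deiminated protein and 2091 and 2496 with non-deiminated protein, a difference of 0.29 with no overlap. The limma adjusted p was 1.00 for each of these 6 genes. Outside the member genes, the lists of assembly factors, carriers, citric acid cycle genes and regulators also had 0 calls by limma, and 0 genes with an unadjusted p below 0.05.

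**Figure D5:**
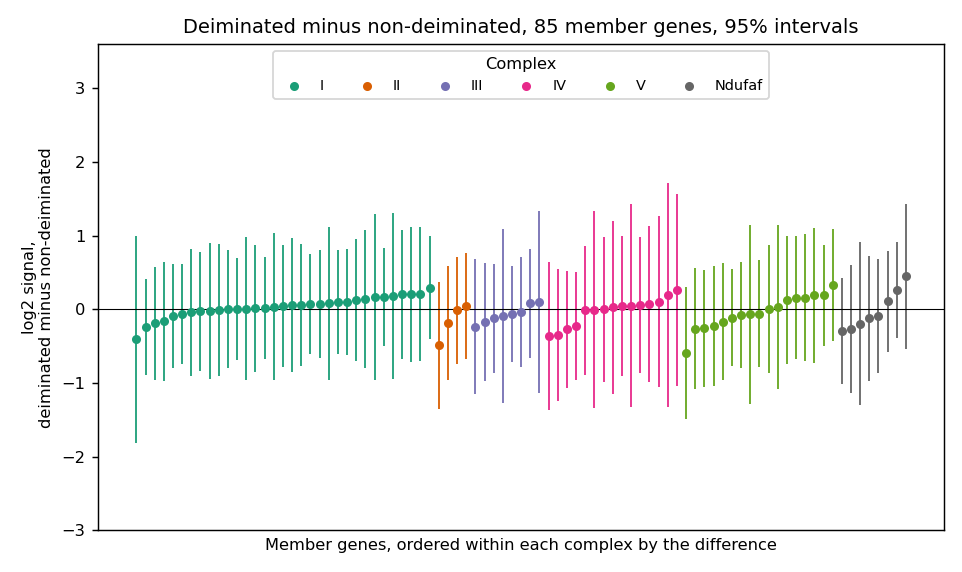
Log2 signal, deiminated minus non-deiminated, for the 85 member genes that passed the filter, ordered within each complex by the difference. Points are estimates through the probe set of highest mean signal, and lines are 95% intervals. Every line crosses 0.

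The bound arrays were also compared by the level of the added transcripts. That level was 10.59 and 12.60 log2 with deiminated protein and 10.08 and 13.04 with non-deiminated protein, so 1 array of each group was higher. The median absolute log2 difference over the members was 0.25 between the first arrays of the groups and 0.26 between the second arrays. Within a group it was 0.38 for deiminated and 0.45 for non-deiminated protein. For the members, arrays with a like level of added transcripts were thus closer than arrays of 1 protein form. Over all probe sets this held only in part, at 0.27 between the first arrays and 0.45 between the second arrays, against 0.40 within deiminated and 0.55 within non-deiminated protein. The pairing of arrays follows the added transcripts and not the replicate numbers, which carry no meaning.

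This split moved members both ways. The arrays with more signal from the added transcripts both lay above the other bound arrays for 46 members (28.6%), against 30.0% of all, and below them for 64 (39.8%), against 18.9% of all. Of complex IV probe sets, 15 of 30 were above, as in the values of Cox4i1 and Cox5a, and of complex III, 10 of 14 were below, as in those of Uqcrfs1. The direction of the split differed with brightness. Among members with a mean bound signal of at least 5000, 30 of 37 were above, against 83.9% of all probe sets that bright. Among those from 1000 to 5000, 32 of 57 were below, against 31.1% of all in that range, and from 100 to 1000, 25 of 45 were below, against 27.5%. Under 100, 6 of 22 members were above and 5 below, against 35.3% above and 11.0% below of all probe sets that dim, so direction did not follow brightness throughout. These limits of brightness were chosen after the values were seen, and no cause of the split was tested.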

How the data were processed

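RNA on 5 arrays was analysed. The deposited signal intensities are linear, and the submitters' processing notes name MAS5, with no version given in the sources used here. Per the deposited values, each array has a 2% trimmed mean of 150, so the authors had scaled the arrays to 1 level. Probe sets were named from the platform annotation, and 90 of the 90 member genes matched the RefSeq gene table.

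Before log2, 4.18 was added to each signal, which is the overall median (41.8) over 10. The 64 control probe sets were left out, and of the other 45037 those at or above the 40th percentile of mean log2 signal were kept, which left 27022. One limma 3.58.1 model (R 4.3.3, lmFit and eBayes with a trend) held the means of 3 groups, with 2 residual and 10.9 prior degrees of freedom. Bound is the mean of the bound group means, and the lone input array is assumed to vary like the bound arrays. Values after ± are standard errors, p-values are adjusted by Benjamini-Hochberg over all tested probe sets, and precision is limited by the number of arrays. The fit was also tested on simulated data. Replicate numbers were given in sample order and pair nothing.

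Genes were named by role: core complex I, complexes II to IV and the main complex V subunits. Added by value were the 2 genes per direction with the largest called bound minus input difference in each complex, and the 3 per direction with the largest moderated t of deiminated minus non-deiminated. Further member genes, other probe sets of named genes and genes of the lists were picked as examples after their values were seen. The members, lists and tests were chosen with earlier results of these data known. Alternatives covered the pseudocount, the filter, the scaling, the variance model, blocks, array weights, the choice of probe set and leaving out each bound array.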

Additional observations from a re-analysis of the deposited data

How the results depend on the processing

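Bound minus input had a member median of 1.26 to 1.38 with 1 bound array left out at a time. The median of all probe sets was then -0.21 to -0.18. Replicate numbers were given in sample order and pair nothing, so no replicate block was fitted. With the protein name in the title (MA-Brent-1 or REFP2) as a block, 78 members were called higher and 14 lower. Of all 27022 probe sets, 6629 (24.5%) were then called higher and 7451 lower. A block for the level of the added transcripts gave 93 members higher and 21 lower. Of all probe sets it gave 8126 (30.1%) higher and 9485 lower. Cyclic loess gave 53 members higher, 31 lower and a median of 0.028, against 6647 higher and 5513 lower of all 27022 probe sets. Quantile normalisation gave a median of 0.92. Median centring left 3 lower with a median of 2.74, against 1642 lower of all probe sets. Scaling to the added transcripts left 0 lower with 6.75, and 0 lower of all probe sets. With no filter 26 were lower, against 36.2% of all probe sets. With a filter at the 60th percentile 11 were lower with a median of 1.52, against 3787 lower of all probe sets. For deiminated minus non-deiminated, no member was called under any setting, while 24 and 2 of all probe sets were called without non-deiminated replicate 1 and without non-deiminated replicate 2.

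Signs of bound minus input changed as follows. Scaling to the added transcripts gave 5.39 for Ndufs7, 4.0 for Ndufv2, 4.04 for Sdhd, 3.28 for Uqcrh, 5.18 for Uqcr10, 2.63 for Cox4i2, 5.19 for Cox5a, 5.13 for Cox6a2, 4.59 for Cox6b1, 2.77 for Cox7a1, 4.66 for Cox7c, 2.89 for Cox8c, 4.14 for Ndufv3 and 2.14 for Atp5k. Median centring gave 1.39 for Ndufs7, 0.039 for Sdhd, 1.18 for Uqcr10, 1.19 for Cox5a, 1.13 for Cox6a2, 0.59 for Cox6b1, 0.66 for Cox7c and 0.14 for Ndufv3. Both are constant shifts between arrays. Quantile normalisation gave -0.72 for Ndufs8, 0.24 for Cox5a, 0.62 for Cox6a2, 0.38 for Cox7c, -0.22 for Atp5d and -0.42 for Atp5e. Cyclic loess gave -1.52 for Ndufs8, -0.33 for Sdhc, -0.47 for Uqcrb, -1.19 for Cox6a1, -1.31 for Atp5d, -0.66 for Atp5e and -0.89 for Atp5h. The mean over probe sets gave 0.42 for Ndufv2. Leaving out 1 bound array gave -0.20 to 0.071 for Ndufs7, -0.13 to 0.18 for Ndufs8 and -0.67 to 0.13 for Cox5a, and in deiminated minus non-deiminated -0.14 to 1.03 for Ndufaf5. The cause of these changes was not tested. Of the other values for named genes, 903 kept their sign and side of the threshold, 41 lost a call, 26 gained one and 17 moved. With 1 input array, every difference against it rests on that array, and low signals limit what the dim isoforms can show.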

Other observations

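Markers of other brain cells were measured beside the subunits, for bound minus input on the signals as deposited. Their counts stand against 31.6% of all genes called higher and 24.8% called lower. Of 6 astrocyte markers, 3 were called higher and none lower. Apoe, the main lipid carrier that astrocytes secrete, had 4260 and 4313 with deiminated protein, 3531 and 3991 with non-deiminated protein and 45.4 in the input, a difference of 6.34 ± 0.35 (limma, adjusted p = 2.58e-07). Gfap, the intermediate filament of astrocytes, had an uncalled difference of -0.31 ± 0.34. Of 5 oligodendrocyte markers that passed the signal filter, 3 were called higher and none lower. The myelin genes Mag and Mobp were called higher by 4.29 ± 0.41 and 3.22 ± 0.40. Mbp, which encodes myelin basic protein, had 14068 and 33403 with deiminated protein, 10834 and 42152 with non-deiminated protein and 31935 in the input, so the groups overlap, and its difference of -0.57 ± 0.82 was not called. Of 5 microglial markers that passed, 2 were called higher, Csf1r by 1.20 ± 0.38 and C1qa by 2.03 ± 0.52. The others, Aif1, C1qb and Cx3cr1, had uncalled differences of -1.43 ± 0.58, -0.35 ± 0.37 and -0.048 ± 0.41. No marker of these cell types was called between deiminated and non-deiminated protein, and 0 had an unadjusted limma p below 0.05.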
